A study of Mus musculus with 49 samples.

Results

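Kinesins, cytoplasmic dyneins and dynactin are the motors and motor cofactors that move cargo along microtubules. The genes described here are all 35 genes of the table whose symbols begin with Kif and a digit, Kifap, Klc and a digit, Dync, Dynl or Dctn, without Kif1bp, of 9020 genes listed. They comprise 19 kinesin genes, 11 dynein genes and 5 dynactin genes. The genes were measured in 49 single cells of wild-type CD1 mice, which share 1 condition. Cells generated around E13.5 were marked with FlashTag, a fluorescent dye that labels cells dividing at the ventricular surface. They were aspirated through a patch pipette from slices of the primary somatosensory cortex at postnatal day 7 (P7), by Patch-seq. The paper describes them as neurons. They were sequenced in 5 library pools of 9 to 12 cells. Cells were picked by the brightness of their label. The labels name no animal, so the 49 cells count as 1 sample, and comparisons between cells are descriptions without tests. The paper reports that the cells came from several independent experiments, which the labels do not name either.

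Most kinesins walk toward the plus ends of microtubules, which point to the tip of the axon, and carry vesicles, mitochondria and membrane precursors outward. Cytoplasmic dynein 1 walks the other way and returns signalling endosomes and degradative organelles to the cell body, with dynactin as the complex that links it to cargo and keeps it on the track. In the developing cortex the same machinery moves the nucleus during migration and supports the growth of axons and dendrites.

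The values are RPM, in which the authors brought every cell to a common total of reads. The recovered depth ranged from 209850 to 35342325 reads per cell (median 1240101), so that 1 read stood for 4.77 RPM in the shallowest cell and for 0.0283 RPM in the deepest. The kit primes at the 3′ ends of transcripts, so RPM was not divided by length. Values per kilobase of the longest coding transcript are also given for the kinesin-2 and dynactin genes, the light intermediate chains and the dynein share. Other levels and counts set side by side are not scaled by length. Of the neuron markers Snap25, Syt1, Stmn2, Map2 and Rbfox3, all 5 were listed, and their summed level ran from 1011 to 15101 RPM with a median of 5993 RPM. IL05 of pool 5 had 1033 RPM of neuron markers and the highest sums of 5 microglial genes (6599 RPM, next 3551 RPM in IL08 of pool 3) and of 3 genes of proliferating cells (705 RPM, next 687 RPM in IL01 of pool 4). The oligodendrocyte lineage genes were highest in IL02 of pool 2 (3905 RPM) and the astrocyte genes in IL05 of pool 2 (2812 RPM). The 7 genes of inhibitory neurons were highest in IL08 of pool 4 (6493 RPM), where the 5 genes of excitatory neurons summed to 4.25 RPM. In IL01 of pool 3, which had the lowest sum of neuron markers, 68.8% of reads were hemoglobin reads, and 8 cells had at least 1% of them.

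The promoters of 4 genes are shown because these genes carry patterns described further on. Dctn3 and Dynlrb1 had the highest correlation of any pair of these genes, and Dctn3, Klc1 and Kif5c hold the full cAMP response element. Each window runs from 250 bases before to 50 bases after the RefSeq start site on the strand of the gene, in build GRCm38.p6. The windows are chr4:41723114-41723413 on the minus strand for Dctn3, chr2:155236283-155236582 on the plus strand for Dynlrb1, chr12:111758618-111758917 on the plus strand for Klc1 and chr2:49619036-49619335 on the plus strand for Kif5c. Capitals mark 4 motifs on either strand. They are the cAMP response element, with the letters TGACGTCA, and the GC box, spelled GGGCGG. The others are the box spelled CCAAT and the TATA box, for which TATAAA was searched.
Dctn3: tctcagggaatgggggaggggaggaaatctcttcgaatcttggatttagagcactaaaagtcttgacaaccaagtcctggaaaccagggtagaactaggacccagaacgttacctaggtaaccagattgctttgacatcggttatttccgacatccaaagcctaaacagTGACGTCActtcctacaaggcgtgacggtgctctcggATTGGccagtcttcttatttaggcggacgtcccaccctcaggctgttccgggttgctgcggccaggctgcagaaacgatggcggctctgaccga
Dynlrb1: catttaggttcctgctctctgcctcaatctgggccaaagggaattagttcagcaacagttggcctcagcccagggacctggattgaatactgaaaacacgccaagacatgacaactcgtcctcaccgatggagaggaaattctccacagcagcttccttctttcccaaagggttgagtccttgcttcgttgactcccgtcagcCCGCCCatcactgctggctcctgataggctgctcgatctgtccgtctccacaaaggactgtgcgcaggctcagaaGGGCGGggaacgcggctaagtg
Klc1: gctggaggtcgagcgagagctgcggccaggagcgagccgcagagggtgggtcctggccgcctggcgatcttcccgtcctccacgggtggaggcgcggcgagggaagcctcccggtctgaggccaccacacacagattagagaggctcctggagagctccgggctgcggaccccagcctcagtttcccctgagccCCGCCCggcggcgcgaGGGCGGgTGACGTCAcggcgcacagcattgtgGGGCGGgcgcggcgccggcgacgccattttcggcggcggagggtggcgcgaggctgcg
Kif5c: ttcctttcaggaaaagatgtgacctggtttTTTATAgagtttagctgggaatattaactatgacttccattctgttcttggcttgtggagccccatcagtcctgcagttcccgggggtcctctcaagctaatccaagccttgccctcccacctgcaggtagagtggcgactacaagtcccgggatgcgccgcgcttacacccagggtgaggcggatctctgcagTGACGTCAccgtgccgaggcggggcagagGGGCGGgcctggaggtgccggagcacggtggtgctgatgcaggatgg
The cAMP response element begins 81 bases before the start in Dctn3, 33 bases before it in Klc1 and 26 bases before it in Kif5c, and the only other promoter of these genes that holds it is that of Kif18a. RefSeq windows were matched for 28 of the 35 genes, with 33 windows in all. The element was in 4 of the 33 windows (12.1%), in 3.39% of the 8938 windows of listed genes and in 1.79% of all 32851 windows. The GC box was in 25 of the 33 windows (75.8%, against 63.7% for listed genes and 35.7% for all), and the CCAAT box in 13 (39.4%, 37.2% and 37.4%). The palindrome bound by NRF1 was in the windows of Kifap3 and Dync1li1 (6.06%, 2.07% and 0.971%). The ETS motif CCGGAAG was in 5 windows (15.2%, 17.3% and 8.86%). The YY1 motif AAGATGGCG was in 1 window (3.03%, 3.27% and 1.40%), and the TATA box in 1 (3.03%, 7.25% and 13.6%). Both strands were searched. A match is a description of the letters and not a site of binding, and the share of matches was read from all promoters without a test.

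More of the motor genes than of all listed genes were at high levels or were read in every cell, while the shares read in at least 25 cells were close. A read was recorded in at least 25 of the 49 cells for 29 of the 35 genes (82.9%), where 80.6% of all listed genes reached this. In all 49 cells a read was found for 8 genes, 22.9% of them against 8.10% of all listed genes. The 8 were Dynlrb1, Dynll1, Kifap3, Klc1, Dctn3, Dync1i2, Kif5a and Kif21b. At least 10 RPM in at least 25 cells was reached by 26 genes (74.3%, against 38.2%). A median of at least 100 RPM was reached by 19 genes (54.3%, against 13.7%). The median of the 35 medians was 104 RPM, against 3.87 RPM over all listed genes. Every one of the 9020 listed genes reaches 100 RPM in at least 2 cells, so these shares describe a table already filtered for expression, and the remaining motor genes of this kind were not analysed here. The median of medians was 62.7 RPM for kinesins, 148 RPM for dyneins and 118 RPM for dynactin genes.

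**Figure D1:**
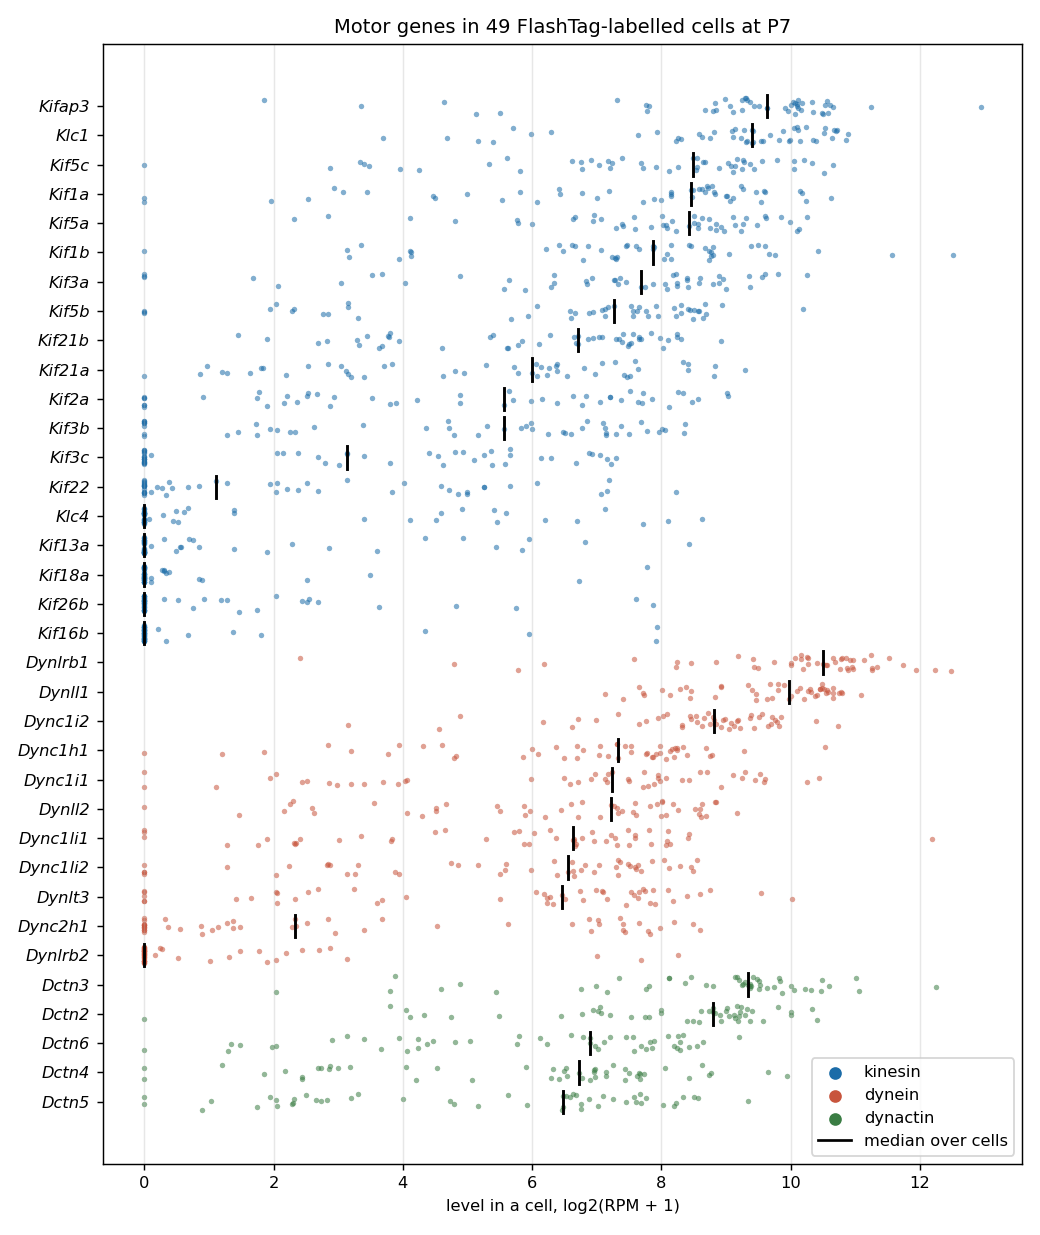
The level of each of the 35 genes in each of 49 cells, log2(RPM + 1) on the horizontal axis, with genes in rows grouped into kinesin, dynein and dynactin and ordered by their median (black line). Dynlrb1, at a median of 1453 RPM, and Dynll1, at 1006 RPM, lie to the right, and the 6 genes with a median of 0 sit on the left axis.

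The motors of fast axonal transport were read in nearly all cells. Kif1a and Kif1b, the kinesin-3 motors that carry synaptic vesicle precursors and mitochondria, had medians of 349 and 234 RPM. The range of Kif1a was 0 to 1569 RPM, and that of Kif1b was 0 to 5842 RPM, its highest value lying in IL08 of pool 5. Kif1b ranked among the 2000 most variable genes. Among the kinesin-1 heavy chains, Kif5a had a median of 343 RPM (3.97 to 1224), Kif5c of 360 RPM (0 to 1612) and Kif5b of 153 RPM (0 to 1168). Kif5a and Kif5c are the neuron-enriched members of this family, and Kif5b is found in most tissues. Klc1, the light chain through which kinesin-1 grips cargo, had a median of 678 RPM (11.9 to 1888), whereas the light chain Klc4 was read in 23 cells with a median of 0 RPM.

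The heterotrimeric kinesin-2 motor, made of Kif3a, Kif3b or Kif3c and the accessory subunit encoded by Kifap3, was unevenly represented at the RNA level. Kifap3 led the kinesins with a median of 795 RPM and a range of 2.60 to 7854 RPM. Its highest value, in IL12 of pool 1, was 3.23 times the next highest. Kif3a had a median of 205 RPM, Kif3b of 46.4 RPM and Kif3c of 7.75 RPM. Per kilobase the medians were 198, 64.8, 8.24 and 1.14 RPM for Kifap3, Kif3a, Kif3b and Kif3c, so the order did not change.

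The remaining kinesins had medians of 103 RPM or less. Kif21b and Kif21a, which slow the growth of microtubules, had medians of 103 and 62.7 RPM. Kif2a, a depolymerase that trims axon branches, had a median of 46.5 RPM and was read in 43 cells. The kinesin of mitosis Kif22 was read in 33 cells, but at 10 RPM or more in only 15. It was highest, at 298 RPM, in IL04 of pool 5, where the 3 listed genes of proliferating cells summed to 126 RPM. In the other cells with at least 100 RPM of Kif22, this sum was 705 RPM in IL05 of pool 5, 3.09 RPM in IL09 of pool 4 and 0.708 RPM in IL10 of pool 1. Kif13a was read in 20 cells, Kif26b in 18, Kif18a in 13 and Kif16b in 9, each with a median of 0 RPM. Kif13a and Kif16b are endosomal motors. For comparison, C1qb, a gene of microglia and not of neurons, was read in 38 cells, of which 11 reached 10 RPM, so the counts of cells with a read given here do not by themselves separate expression from background. Kif22, with 15 cells at 10 RPM, and Klc4, with 13, stood little above C1qb by this count, and Kif13a, Kif26b, Kif18a and Kif16b, with 3 to 8 cells, stood below it.

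Cytoplasmic dynein 1 was present through all of its subunit classes. Dync1h1, the heavy chain that holds the motor, had a median of 160 RPM (0 to 1473). Among the intermediate chains, Dync1i2 had a median of 451 RPM (7.87 to 1700) and Dync1i1, the form enriched in neurons, of 149 RPM (0 to 1392). The light intermediate chains Dync1li1 and Dync1li2 had medians of 98.4 and 93.0 RPM. A single cell, IL02 of pool 1, had 4680 RPM of Dync1li1, 13.6 times the next highest value of 345 RPM. The light chains spanned the whole range of levels. Dynlrb1 had a median of 1453 RPM (4.29 to 5737), Dynll1 of 1006 RPM, Dynll2 of 148 RPM and Dynlt3 of 86.8 RPM.

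Dynll1 was the steadiest of the motor genes with a median of at least 100 RPM. It never fell below 138 RPM and never rose above 2187 RPM, so that all 49 cells were above 100 RPM. Its standard deviation on the log2 scale was 1.06, at the 2.19th percentile of the 1232 listed genes with a median of at least 100 RPM. The median over those genes was 2.26, and 2.18 over the 19 motor genes among them. Dync1i2 was also steady, at the 10.1th percentile, whereas Dync1i1 was at the 92.0th percentile. Among the 2000 most variable genes were 5 of the 35 (14.3%, where 22.3% of the 8980 genes ranked were among them), namely Kifap3, Dctn3, Kif1b, Kif16b and Dynlrb2. The count was 8 without library pool 2 and 3 when recovered reads were ranked, so it does not set the motor genes apart from the rest.

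Dynein genes of the cilium were sparse or uneven. Dync2h1, the heavy chain of the dynein that returns cargo from the tip of the cilium, had a median of 4.05 RPM, but 15 cells held at least 100 RPM and 12 held no read. Its median was 117 RPM in pool 2, 10.6 RPM in pool 5, 3.96 RPM in pool 1 and 0 RPM in pools 3 and 4. Dynlrb2, a light chain mostly known from ciliated and germ cells, was read in 18 cells and reached 100 RPM in 3. It had 306 RPM in IL05 of pool 1, 127 RPM in IL08 of pool 1 and 204 RPM in IL03 of pool 2. In these cells the 3 listed markers of ciliated cells summed to 198, 78.0 and 656 RPM, against a median of 2.72 RPM over all cells, and their part in the level of Dynlrb2 was not tested. The highest ciliated sum, 1249 RPM, was in IL08 of pool 5, and 466 RPM were in IL04 of pool 5, and neither cell had a read of Dynlrb2. By pool, Dynlrb2 was read in 8 of 12 cells of pool 1, in 9 of 9 of pool 2 and in 1 of 10 of pool 5, and in no cell of pools 3 and 4. The pools that held the 3 high cells thus held all but 1 of the cells with a read, and only 4 cells had at least 1% of the reads of the gene in their pool. Exchange of reads within a pool was not tested.

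The dynactin genes ordered as Dctn3, Dctn2, Dctn6, Dctn4 and Dctn5. Dctn1 was not among the listed genes, so it is missing from this order and from the dynactin sums. Dctn3, the p24 subunit of the shoulder, had a median of 645 RPM (3.10 to 4854). Dctn2, known as dynamitin and able to take the complex apart when in excess, had a median of 445 RPM (0 to 1351). The pointed-end subunits Dctn6, Dctn4 and Dctn5 had medians of 118, 104 and 88.1 RPM. Per kilobase, Dctn3 was at 663 RPM, Dctn2 at 250 RPM and Dctn6 at 94.5 RPM, and Dctn5, at 57.5 RPM, was above Dctn4, at 27.9 RPM. Dctn2 lies on chromosome 10 (127266368 to 127281950, plus strand) and Kif5a lies beside it on the minus strand (127225696 to 127263348), with 3019 bases between their starts.

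Related subunits were compared within each cell, which keeps depth and pool the same on both sides. Dynlrb1 exceeded Dynlrb2 in 49 of 49 cells, Dynll1 exceeded Dynll2 in 48 and Klc1 exceeded Klc4 in 48. Kifap3 was above Kif3a in 44 cells, Dync1h1 above Dync2h1 in 40, Kif3a above Kif3b in 38 and Dync1i2 above Dync1i1 in 37. For Dync1i2 the share was 75.5% of cells (exact Clopper-Pearson 95% interval 61.1 to 86.7%). These intervals treat the cells as independent draws and do not cover differences between pools or animals. Kif5c exceeded Kif5b in 36 cells and Kif5a exceeded Kif5b in 35. The counts were closer to even for Kif5a over Kif5c (27 of 49, interval 40.2 to 69.3%), for Kif1a over Kif1b (27 of 49) and for Dync1li1 over Dync1li2 (23 of 49, interval 32.5 to 61.7%). Per kilobase, Dync1li1 was higher in 32 cells, so the direction for the light intermediate chains depends on the scale. All 3 Kif5 genes were at 10 RPM or more in 36 cells. Over all 49 cells, Kif5a was the highest of them in 22, Kif5c in 21 and Kif5b in 6.

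**Figure D2:**
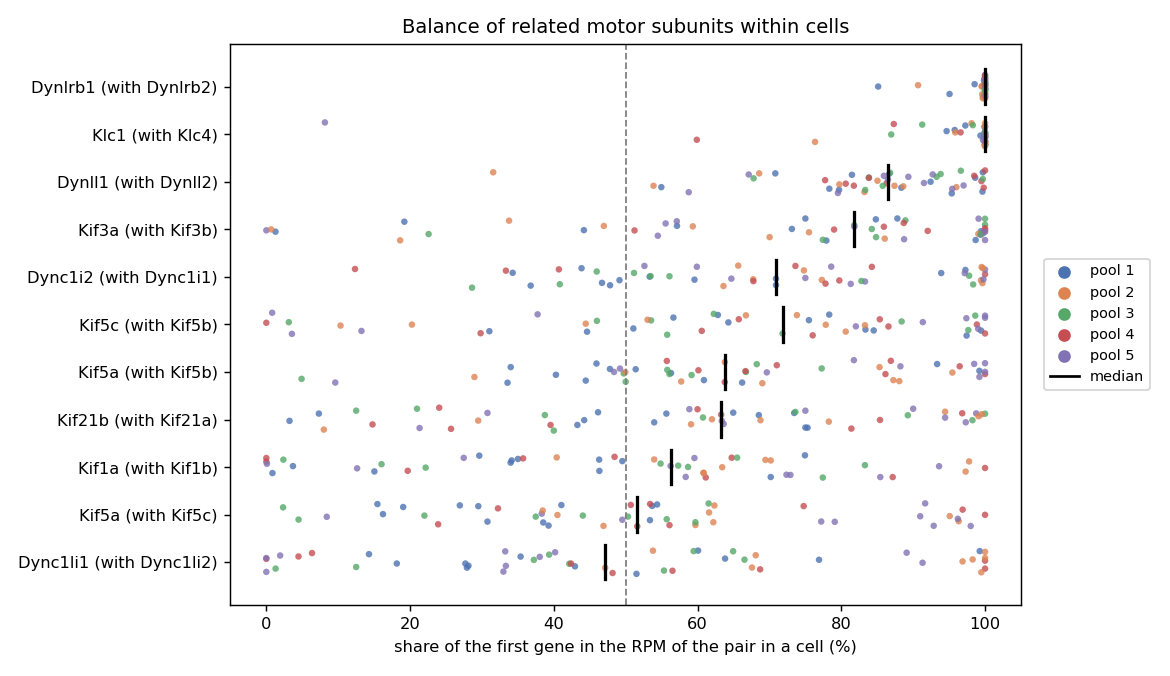
Share of the first gene in the summed RPM of a pair of related subunits in each cell, with the partner in brackets, colours for library pools, a black line for the median and a dashed line at 50%. Dynlrb1, Klc1 and Dynll1 lie to the right of the line in nearly every cell, and Kif5a with Kif5c and Dync1li1 with Dync1li2 lie on both sides of it.

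The library pools did not give the same balance for every pair. Kif1a exceeded Kif1b in 2 of 12 cells of pool 1 and in 25 of 37 cells of the other pools, with medians of 199 and 252 RPM in pool 1 and of 356 and 200 RPM elsewhere. In cells thinned to 358412 reads, the counts were 3 of 10 and 22 of 34, but the medians in pool 1 were nearly equal, at 328 and 324 RPM. Elsewhere the thinned medians were 384 and 209 RPM. Kif5a exceeded Kif5c in 3 of 12 cells of pool 1 and in 24 of 37 elsewhere. Dync1i2 exceeded Dync1i1 in 6 of 12 and in 31 of 37, and in 10 of 10 cells of pool 5. Dctn3 exceeded Dctn2 in 11 of 12 cells of pool 1 but in 3 of 10 of pool 5. Pool 1 was also the deepest (median 9870201 reads, against 814366 in pool 5). In thinned cells, Kif5a exceeded Kif5c in 3 of 10 cells of pool 1 and in 19 of 34 elsewhere. For Dync1i2 over Dync1i1 the thinned counts were 5 of 10 and 28 of 34, and 8 of 9 in pool 5. For Dctn3 over Dctn2 they were 8 of 10 in pool 1 and 4 of 9 in pool 5. Counts from all reads do not separate pool from depth, and pool and the animals behind it cannot be told apart. The paper reports that cells of different collection days and laminar positions were mixed within libraries.

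Summed over each family, kinesins had a median of 4209 RPM per cell (759 to 11269), dyneins of 4216 RPM (892 to 11037) and dynactin genes of 1478 RPM (40.2 to 5063). Together they made up a median of 1.01% of all reads of a cell (0.192 to 1.84%). The dynein share of motor RPM had a median of 43.1%, and of 56.2% when each gene was divided by its length. Single genes carried much of these sums. Dynlrb1 was the highest dynein gene in 35 cells, and without it the median dynein sum was 2564 RPM. Dctn3 was the highest dynactin gene in 31 cells, and without it the median dynactin sum was 857 RPM. Among the kinesins, Kifap3 led in 19 cells and Klc1 in 16.

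Some cells at the ends of these ranges had markers of other cells. IL05 of pool 5, the cell with the microglial signal, had the lowest kinesin sum (759 RPM) and the lowest dynactin sum (40.2 RPM), and IL01 of pool 3 the next lowest kinesin sum. IL12 of pool 1 had the lowest dynein sum (892 RPM) but the next to highest kinesin sum (8741 RPM), of which Kifap3 made up 89.8%. Its genes of inhibitory neurons summed to 3292 RPM and those of excitatory neurons to 75.4 RPM. IL02 of pool 1 had the highest dynein and dynactin sums. IL12 and IL02 of pool 1 had 225363 and 258130 reads and were among the 5 cells too shallow for thinning. Dynlrb1, Dctn3 and Dync1li1 were highest in IL02 of pool 1, and Kifap3 in IL12 of pool 1. Kif1b was highest in IL08 of pool 5, the shallowest cell, with 209850 reads. The highest kinesin sum lay in IL09 of pool 1, with 1236063 reads, and the part of depth was not tested. Across the 49 cells, the motor sum on the log2 scale followed the sum of neuron markers with a Pearson r of 0.65 (rho 0.49, and r 0.39 without the 2 farthest cells). It went against the microglial sum with an r of -0.50 (rho -0.51, r -0.34 without the 2 farthest cells). The r was -0.41 with the hemoglobin percent (-0.13 without the 2 farthest cells), -0.44 with the endothelial gene Flt1 (-0.12) and -0.40 with the proliferating genes (-0.28). With the mitochondrial percent r was -0.15 and rho -0.44. The r with log10 reads was 0.22 and with genes detected 0.28. For the excitatory neuron genes r was 0.39 (rho 0.49), and for the inhibitory neuron genes 0.12 (rho -0.07). All values are shares of the reads of a cell, so less motor RNA and more RNA from other cells cannot be told apart, and the part of these markers in the motor sums was not tested.

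Dynein and dynactin sums moved together across cells, and the kinesin sum did not follow them. The correlation of dynein with dynactin on the log2 scale was 0.77 (Pearson r, 49 cells, rho 0.64), and it was 0.75 after depth and library pool were taken out. Within the pools, r was 0.92, 0.55, 0.27, 0.81 and 0.87 for pools 1 to 5. The value rests in good part on the most abundant gene of each family, since without Dynlrb1 and Dctn3 it was 0.44. For kinesin with dynein r was 0.02, but it was -0.34 without the 8 cells with at least 1% hemoglobin and 0.32 in thinned cells, so neither sign can be taken from it. For kinesin with dynactin r was 0.14 and rho -0.19, and r was -0.47 without the hemoglobin cells, 0.35 in thinned cells, -0.80 in pool 1 and 0.65 in pool 3, so it has no settled sign either.

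**Figure D3:**
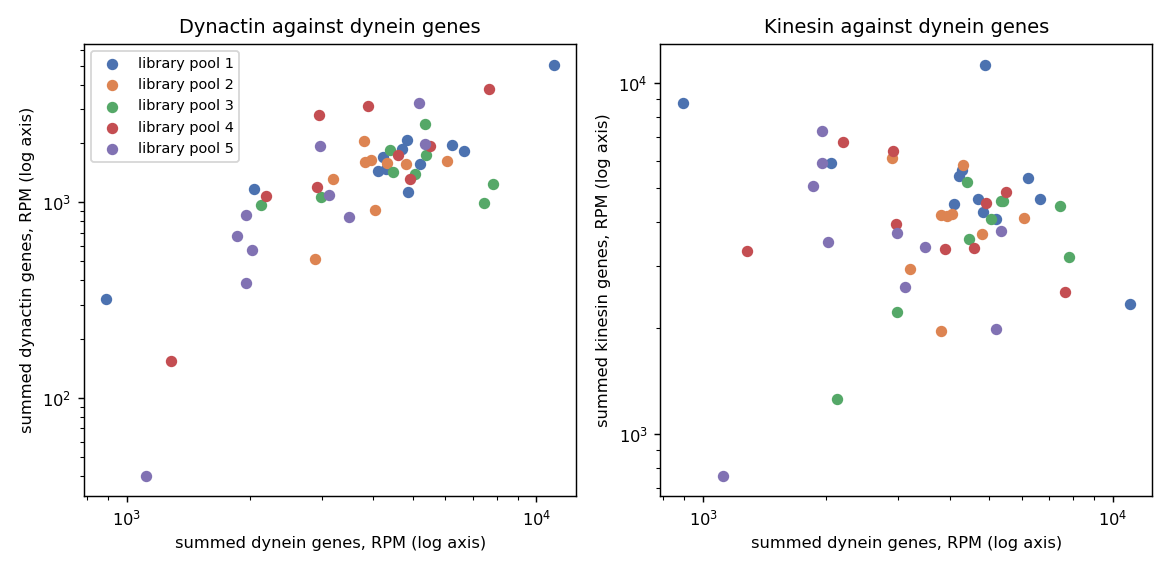
Summed RPM of dynactin genes (left) and of kinesin genes (right) against summed RPM of dynein genes, 1 point per cell, both axes logarithmic, coloured by library pool. Dynactin rises with dynein from the cell with 40.2 RPM to the cell with 5063 RPM of dynactin, and the kinesin sums show no such trend (r 0.02).

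Single gene pairs were compared for the 29 genes read in at least 25 cells, which give 406 pairs. The median r was 0.13 over these pairs and 0.10 over all pairs of listed genes read in at least 25 cells. After depth and library pool were taken out, both were 0.04. An r above 0.4 was found for 8.13% of the motor pairs and for 2.77% of all such pairs. These shares were not computed after depth and pool were taken out, and the genes were not matched for level. A median of at least 100 RPM was reached by 54.3% of the 35 genes and by 13.7% of listed genes, so the difference cannot be read as coregulation. By family, the median was 0.16 within kinesins, 0.12 within dyneins and 0.05 within dynactin genes. It was 0.22 between dynactin and dynein genes, 0.12 between dynein and kinesin genes and 0.10 between dynactin and kinesin genes. All points share depth, pool and the RPM scale, and no p-value is attached to these values.

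**Figure D4:**
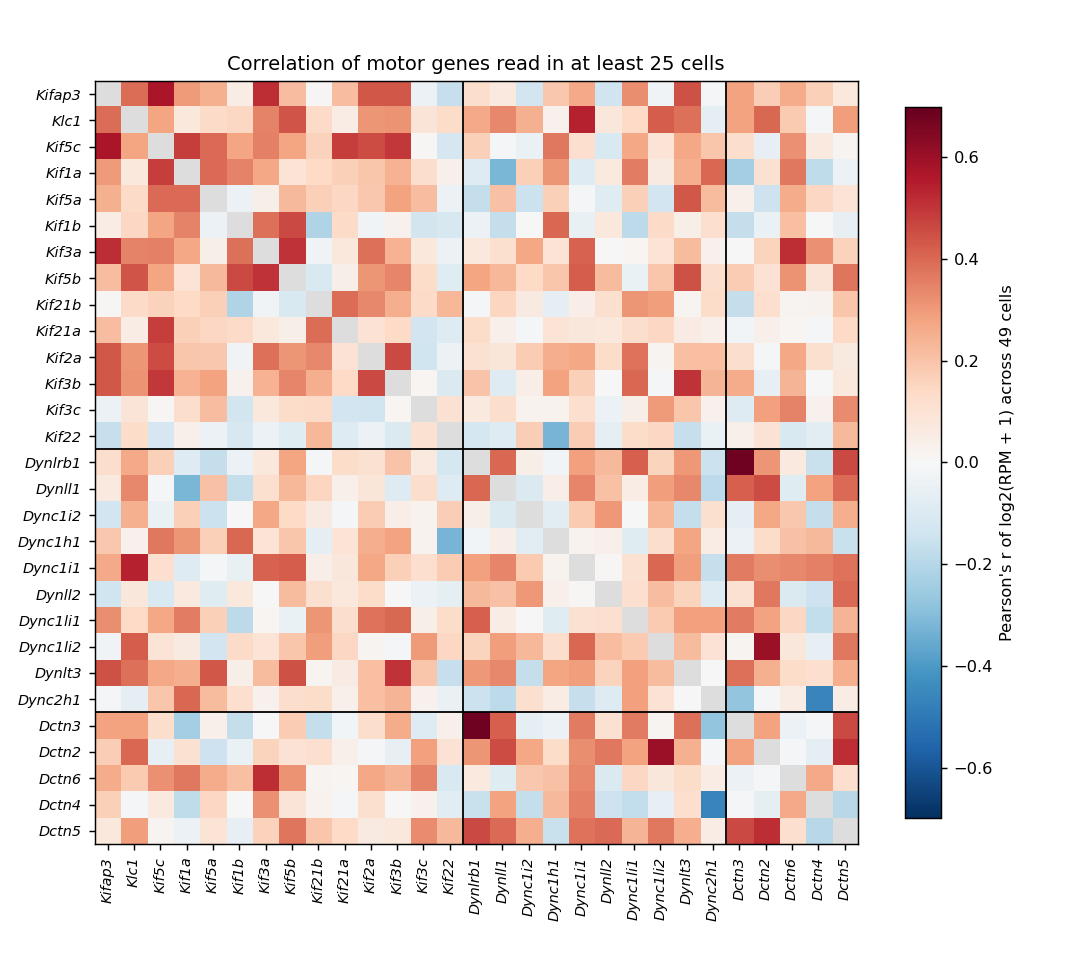
Pearson's r of log2(RPM + 1) across 49 cells for the 29 genes read in at least 25 cells, red for positive and blue for negative, with black lines between kinesin, dynein and dynactin genes. The darkest cells off the diagonal are Dynlrb1 with Dctn3 (r 0.68) and Dctn2 with Dync1li2 (r 0.60), and Dctn4 with Dync2h1 is the strongest negative pair (r -0.46).

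The pairs differed in their r within pools. They were taken from pairs computed on these same cells, so the values within pools are no independent check. Dctn2 and Dync1li2, a dynactin and a dynein 1 subunit, had an r of 0.60 (rho 0.60) that lay between 0.51 and 0.69 in every pool. Dctn2 and Dctn5, both of dynactin, had an r of 0.52, which lay between 0.46 and 0.64 in every pool. Dctn4 and Dync2h1 had an r of -0.46, negative in all 5 pools (-0.65 to -0.12). The median of Dync2h1 was only 4.05 RPM over all cells and 0 RPM in pools 3 and 4, where rho was -0.13 and -0.10. Dynlrb1 and Dctn3, whose promoters are shown above, had the highest value (r 0.68, rho 0.49), but the r was 0.86, -0.33, -0.59, 0.82 and 0.57 in pools 1 to 5. Without pool 5, where the median of Dynlrb1 was 378 RPM and that of Dctn3 was 74.8 RPM, the r was 0.57 and rho 0.25. Kifap3 and Kif3a, partners in the same motor, had an r of 0.52 that dropped to 0.26 without pool 5 (rho 0.06). For Kifap3 and Kif5c the r was 0.57 (rho 0.27), and -0.41, 0.44, 0.49, 0.83 and 0.55 in pools 1 to 5. Klc1 and Dync1i1 had an r of 0.54, and of 0.37 without pool 5. Among 9019 other listed genes, Dynlrb1 was at rank 1 for Dctn3, while Dctn3 was at rank 7 for Dynlrb1, which had its highest r with Hnrnpk (0.75). Dync1li2 was at rank 12 for Dctn2, below Stx7 (0.69), and Dctn2 at rank 10 for Dync1li2, below Nkiras1 (0.72).

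**Figure D5:**
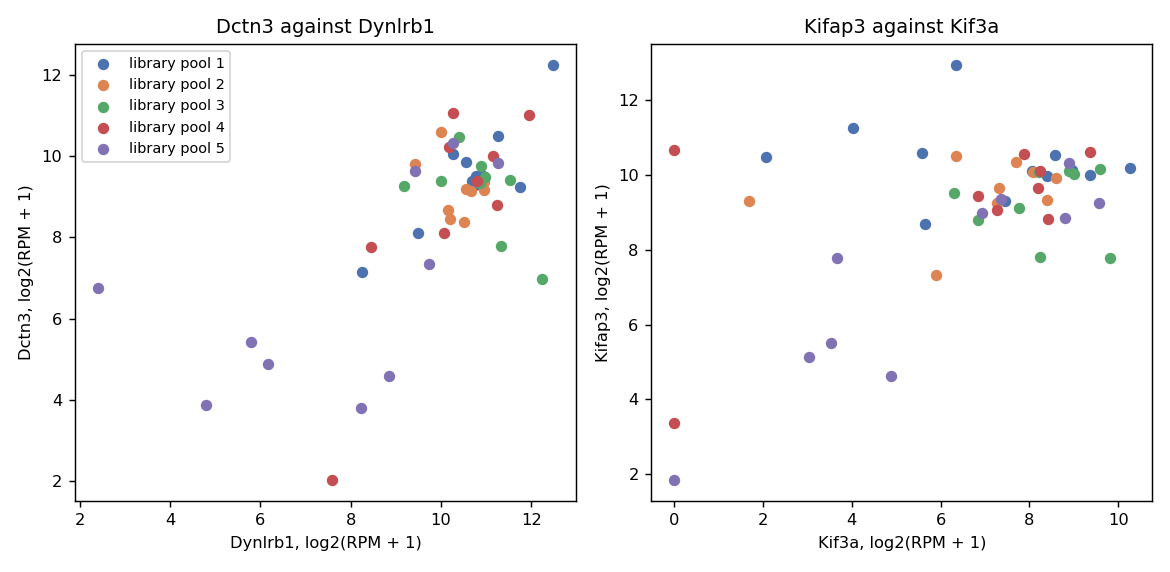
Dctn3 against Dynlrb1 (left) and Kifap3 against Kif3a (right), log2(RPM + 1), 1 point per cell and coloured by library pool. In both panels several cells of pool 5 lie apart at low values, and without pool 5 the correlations were 0.57 and 0.26.

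Other genes of the transport system were taken from lists, and their counts at 10 RPM in at least 25 cells stand beside the share of 38.2% over all listed genes. Of 6 dynactin subunits with other names, 5 were listed and all 5 reached 10 RPM in at least 25 cells, led by the capping protein genes Capzb (median 422 RPM) and Capza2 (313 RPM). Of 19 dynein regulators and adaptors, 13 were listed and 5 reached it, close to that share. Among them were Pafah1b1, which encodes Lis1 (139 RPM), and Ndel1 (133 RPM), and the highest was Ndn (731 RPM), which encodes necdin, a protein better known as a growth regulator of neurons. All 22 kinesin adaptors and regulators were listed and 15 reached it, with Fez1 (407 RPM) and Arl8a (366 RPM) the highest. Of 12 microtubule-associated proteins, 11 were listed and all 11 reached it, with Map1b at 3293 RPM and Mapt at 1543 RPM. Of a list of 10 mitotic kinesins Kif22 was listed. Kif18a, which also acts in mitosis, was not on that list and was counted with the motor genes that regulate microtubules.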

How the data were processed

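The report covers 49 Patch-seq cells of 1 condition. The authors made cDNA with a SMART-Seq v4 kit for 3′ ends, and aligned and counted reads with STAR and HTSeq on mm10, by the paper's methods and the submitters' processing notes. Versions, annotation and strand setting are not given in the sources used here. The deposited table holds RPM, scaled by the authors to the reads of each cell. Dividing by the smallest value of a cell returned whole reads for 100% of values, to within 0.01. Detection, thinning and the filter of 100 reads in at least 2 cells relied on these reads, and levels on RPM. The pseudocount on the log2 scale was 1. The reads carry no molecular identifiers. The exact 95% intervals treat the 49 cells as independent draws and do not cover differences between library pools or animals. In GENCODE M21, 18 of the 35 genes overlap another gene, and their reads may be shared between strands. None of the 35 shares a 100-base stretch of its 3′ end with another gene. Variable genes were ranked with Seurat's vst. The named genes are all motor genes by role, beside lists of pathways, markers and motifs. These genes and lists were chosen with earlier results of these data known. Read recovery and correlations were tested on simulated data. The alternatives were other limits of detection, thinning to 358412 reads (44 cells), TMM, other pseudocounts, leaving out each library pool, and settings chosen after seeing the data. The software was R 4.3.3 with Seurat 5.3.0 and edgeR 4.0.16, and Python 3.11.15 with scipy 1.17.1, pandas 2.3.3, matplotlib 3.10.9 and numpy 2.4.6.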

Additional observations from a re-analysis of the deposited data

How the results depend on the processing

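Of 74 alternatives for 8 results, 70 kept the value within its limits. These limits were wide for the sums and the share, so the count says little about how stable those are. The median dynein sum of 4216 RPM counted as kept at 2564 RPM without Dynlrb1, where its standard deviation over cells was 1937 RPM. The dynactin sum of 1478 RPM counted as kept at 857 RPM without Dctn3, and the dynein share at 33.2% without Dynlrb1. The dynein share of motor RPM was 43.1%, and 56.2% per kilobase of transcript. The number of motor genes among the 2000 most variable was 5, but 8 without library pool 2 and 3 when recovered reads were ranked in place of RPM. The correlation of the dynein and dynactin sums was 0.77, and 0.44 without the most abundant gene of each family, an alternative chosen after seeing the data. The number of genes read in at least 25 cells was 29 and ranged from 26 to 31. The causes were not tested. The depth limits the rare genes, since 1 read stood for up to 4.77 RPM. No paired analysis was possible because the study holds a single condition.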
